A study of Rattus norvegicus with 10 samples.

Results

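The miRNAs described here are miR-10a-5p, miR-10b-5p and miR-196a-5p, whose hairpin genes lie in the Hox gene clusters. They were chosen by mature name and are 3 of the 765 rat miRNAs in the deposited table. miR-10a-5p and miR-10b-5p had values in every library, while miR-196a-5p was listed at 0 throughout. Small RNA of the hippocampus was sequenced in Wistar rats, 10 weeks old, with 5 libraries of the 2-VO operation, which ties off both common carotid arteries to reduce cerebral blood flow, and 5 libraries of sham-operated rats. The labels name no genetic change or drug, and they do not give the time from operation to sampling. Separate animals per library are not stated, and the p-values therefore speak only of the variation among these libraries, part of which may be technical.

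Hox genes encode transcription factors that set position along the body axis, and they are active in hindbrain, spinal cord and trunk rather than in the forebrain, to which the hippocampus belongs. The miRNAs made from the same clusters follow that regional pattern, and miR-10 and miR-196 repress several Hox transcripts. miR-10a is also known from arterial endothelium, where it dampens inflammatory signalling.

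The mature sequences are shown because miR-10a-5p and miR-10b-5p differ by few bases, as do the 3 miR-196 sequences among themselves. This bears on how reads are told apart. miR-10a-5p and miR-196a-5p are unlike, with a longest shared run of 4 bases. They are from RefSeq (rat build GRCr8), written 5′ to 3′, with the seed, bases 2 to 8, in capitals.
miR-10a-5p: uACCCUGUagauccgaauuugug
miR-10b-5p: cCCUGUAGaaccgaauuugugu
miR-196a-5p: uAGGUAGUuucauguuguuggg
miR-196b-5p: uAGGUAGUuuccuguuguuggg
miR-196c-5p: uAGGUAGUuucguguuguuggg
miR-100-5p: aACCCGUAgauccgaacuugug
let-7a-5p: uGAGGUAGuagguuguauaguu
Aligned with miR-10a-5p, the annotated miR-10b-5p starts 2 bases later, so the seeds read from these entries are not the same. The 2 bases just before its annotated start in the hairpin are UA. Read from there over the 23 bases of miR-10a-5p, the miR-10b hairpin differs from miR-10a-5p by U12A alone, counted from 1 at the 5′ end of miR-10a-5p. The 3 miR-196 sequences share a seed, and miR-196b-5p and miR-196c-5p differ from miR-196a-5p by A12C and A12G. miR-100-5p, of the wider miR-10 superfamily, shares a run of 11 bases with miR-10a-5p. let-7a-5p holds the 7 bases of the miR-196 seed, starting at its base 3.

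The hairpins of the detected members are shown with their annotated arms in capitals, to place these arms and the start of miR-10b-5p. In GRCr8 the miR-10a hairpin lies at chr10:81779709-81779818 on the plus strand between Hoxb5 and Hoxb4. The miR-10b hairpin lies at chr3:80035859-80035967 on the plus strand within Hoxd4.
miR-10a hairpin: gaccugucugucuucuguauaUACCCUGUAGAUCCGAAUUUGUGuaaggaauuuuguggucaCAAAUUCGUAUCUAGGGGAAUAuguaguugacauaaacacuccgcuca
miR-10b hairpin: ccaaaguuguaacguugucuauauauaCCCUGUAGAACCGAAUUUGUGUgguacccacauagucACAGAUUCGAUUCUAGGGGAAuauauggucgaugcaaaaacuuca
The gene of miR-196a lies at chr7:135988876-135988985 between Hoxc10 and Hoxc9, that of miR-196b between Hoxa9 and Hoxa10, and that of miR-196c between Hoxb13 and Hoxb9. The hairpin of miR-615, another Hox-cluster miRNA, lies within the annotated Hoxc5 and Hoxc6 genes.

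Values are RPM, read counts relative to a divisor of each library. That divisor was 13095384 to 13839174 reads in 2-VO and 13032805 to 13850400 reads in sham libraries. The listed miRNAs made up 60.3% to 78.0% of it in 2-VO and 66.4% to 77.0% in sham libraries, with the lowest share in 2-VO replicate 3. Because no library lists a value that stands for under 10 reads, a 0 is taken as fewer than 10 reads, a limit of 0.722 to 0.767 RPM. The neuron and progenitor miRNAs listed were miR-9a-5p, miR-124-3p, miR-128-3p, miR-132-3p, miR-138-5p and miR-218a-5p. They summed to 171311 to 222620 RPM in 2-VO and to 181836 to 221543 RPM in sham libraries. Whether this sum sets hippocampus apart from other brain regions was not tested.

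miR-10a-5p was a miRNA of modest level whose values varied widely among libraries. It stood at 16.3, 23.3, 29.9, 9.01 and 28.8 RPM in 2-VO replicates 3, 5, 6, 7 and 8. In sham replicates 1 to 5 it stood at 12.9, 27.0, 2.67, 4.81 and 16.0 RPM. Replicate 7 was the low library of the 2-VO group and replicates 3 and 4 were the low libraries of the sham group, and the groups overlapped, with 4 of 5 2-VO values above the sham median and 2 above the highest sham value. These RPM values rest on 120 to 398 reads per 2-VO library and 35 to 364 reads per sham library. By mean RPM over the 10 libraries, miR-10a-5p ranked 305th of the 474 miRNAs that averaged 1 RPM or more.

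miR-10b-5p, the paralog from the Hoxd cluster, was scarcer. Its values were 4.59, 2.52, 4.03, 3.005 and 1.81 RPM in 2-VO replicates 3, 5, 6, 7 and 8. In sham replicates 1 to 5 they were 1.88, 0.890, 2.13, 1.18 and 4.14 RPM. The groups overlapped here too, since sham replicate 5 lay above every 2-VO library but replicate 3, while 4 of 5 2-VO values lay above the sham median. Only 25 to 63 reads per 2-VO library and 12 to 54 reads per sham library stand behind these values. The 95% counting interval of the lowest, in sham replicate 2, ran from 0.460 to 1.55 RPM (exact Poisson interval, counting error only).

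**Figure D1:**
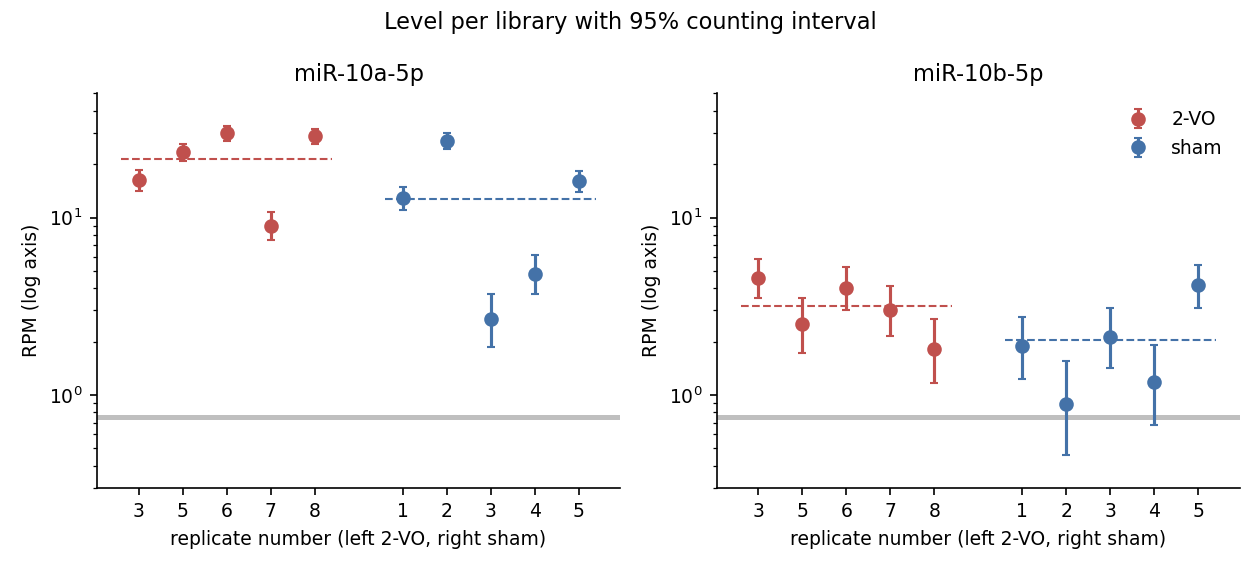
RPM of miR-10a-5p (left panel) and miR-10b-5p (right panel) on a log axis, by replicate number, with 2-VO libraries on the left and sham libraries on the right of each panel. Bars are 95% counting intervals, dashed lines are group means and the grey band is the limit that a listed 0 stands for. miR-10a-5p ran from 9.01 to 29.9 RPM in 2-VO and from 2.67 to 27.0 RPM in sham libraries.

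miR-196a-5p, which represses Hoxb8 in mouse, was listed at 0 in all 5 2-VO and all 5 sham libraries. At this depth that limits it to fewer than 10 reads per library, and no difference between the groups can be seen or tested. The rest of the Hox-cluster list gave no value either. Of its 10 names, 8 are rows of the table (miR-10a-3p, miR-10b-3p, miR-196a-3p, both arms of miR-196b and miR-196c, and miR-615), and each was listed at 0 in all 10 libraries. Of the 11 Hox-cluster rows, 2 thus had values and 9 had none. Among all 765 rows, 237, or 31.0%, were listed at 0 throughout. For both detected hairpins the table thus shows the 5p arm and lists the 3p arm at 0.

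Between the paralogs, miR-10a-5p had the higher RPM in 10 of 10 libraries, and the mature sequences are 23 and 22 bases long. The RPM of miR-10a-5p divided by that of miR-10b-5p was 3.54, 9.24, 7.42, 3 and 15.9 in 2-VO replicates 3, 5, 6, 7 and 8. In sham replicates 1 to 5 the quotient was 6.85, 30.3, 1.25, 4.06 and 3.87. Sham replicates 2 and 3 thus held the highest and the lowest quotient of all 10 libraries. On the log2(RPM + 1) scale the ratio of miR-10b-5p to miR-10a-5p was -2.35 ± 0.860 in 2-VO and -1.90 ± 1.34 in sham libraries (SD, n = 5 each). The difference of -0.45 was smaller than either spread (exact permutation test, two-sided, p = 0.56). It was -0.94 without sham replicate 2, -0.70 without 2-VO replicate 7, -0.18 without 2-VO replicate 8 and -0.028 without sham replicate 3. The split between them is uncertain, because the sources used here do not say how reads matching both paralogs were counted.

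No correlation between the paralogs was detected over the libraries. Over the 10 libraries Pearson's r of their log2(RPM + 1) values was 0.17 (permutation test, p = 0.64) and Spearman's rho was 0.067 (permutation test, p = 0.87). Without sham replicates 3 and 4, the libraries farthest from the median of miR-10a-5p, r was -0.27 (permutation test, p = 0.52, n = 8). With each group centred on its own mean, r was -0.098 (permutation test, p = 0.79, n = 10). This was the only pair of members with values. The p-values are repeated, unadjusted tests of this 1 relation, and the libraries left out were picked by their miR-10a-5p values.

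**Figure D2:**
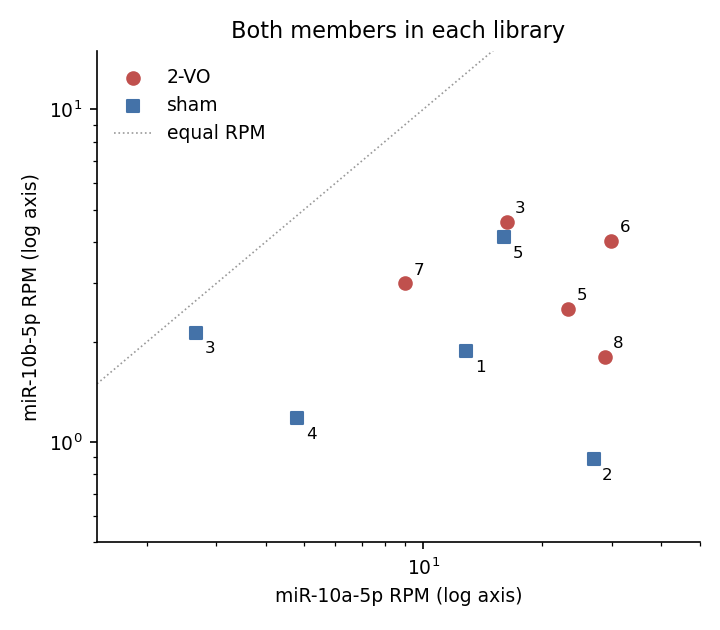
RPM of miR-10a-5p (horizontal) against RPM of miR-10b-5p (vertical), both on log axes, with 1 point per library and replicate numbers beside the points (circles 2-VO, squares sham). Every point lies below the dotted line of equal RPM, and sham replicates 2 and 3 stand at opposite ends of the sham range of miR-10a-5p with 0.890 and 2.13 RPM of miR-10b-5p.

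The comparison of 2-VO with sham asks whether these miRNAs differ after carotid occlusion. Both detected members had higher mean levels in 2-VO libraries, and neither difference passed. miR-10a-5p averaged 21.4 ± 8.79 RPM in 2-VO and 12.7 ± 9.72 RPM in sham libraries (SD, n = 5 each). Its log2 fold change was 0.96 ± 0.47 (SE), taken on log2(RPM + 1) values, where the pseudocount makes changes of scarce miRNAs look smaller. The adjusted p was 0.76 (limma's moderated test, Benjamini-Hochberg adjusted over 474 miRNAs), and an exact two-sided permutation test gave p = 0.15. The 95% interval of the log2 fold change ran from -0.043 to 1.95, which is from 0.971-fold to 3.87-fold in 2-VO over sham on the RPM + 1 scale.

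miR-10b-5p averaged 3.19 ± 1.13 RPM in 2-VO and 2.05 ± 1.28 RPM in sham libraries (SD, n = 5 each). Its log2 fold change was 0.51 ± 0.25 (SE), with a 95% interval from -0.038 to 1.05 (limma adjusted p = 0.76). An exact two-sided permutation test gave p = 0.14. The smallest p that this test can give is 0.0079. In bulk tissue, a change in the number of cells of a type and a change in RNA per cell cannot be told apart.

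Against the background, 0 of 474 miRNAs passed the adjusted threshold of 0.05, which is 0%, and the smallest adjusted p was 0.44. An unadjusted p under 0.05 was found for 24 of them, or 5.06%, and neither member was among these, at 0.059 for miR-10a-5p and 0.066 for miR-10b-5p (limma's moderated test). With limma's voom on the whole reads 0 passed and 25, or 5.27%, had an unadjusted p under 0.05. Groups that did not overlap were found for 3 miRNAs, or 0.633%, and for 0 of the members. A log2 fold change above 0 was found for 179 of the 474, or 37.8%, and the median over all was -0.051. This share depended on the scaling and on 2-VO replicate 3. It was 240 of 474 when values were scaled to listed miRNA reads, and 236 of 474 without 2-VO replicate 3. On the log2(RPM + 1) scale the log2 fold change of miR-10a-5p was the highest of the 474 and that of miR-10b-5p the 7th highest, while by p they stood 31st and 34th. The order depends on this scale. Mean RPM of miR-200a-3p differed by a larger factor than that of miR-10a-5p, at 6.20 in 2-VO and 1.68 in sham libraries.

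The size of the miR-10a-5p difference depended on sham replicate 3. Without this library, which had the lowest value, its log2 fold change was 0.57 (limma adjusted p = 0.96). The other values with 1 library left out ran up to 1.30, without sham replicate 2, and the adjusted p of all 10 such fits lay between 0.58 and 0.985. For miR-10b-5p the log2 fold change ran from 0.36 without sham replicate 2 to 0.72 without sham replicate 5, and its lowest adjusted p was 0.46. With a pseudocount of 5 in place of 1 it was 0.22.

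**Figure D3:**
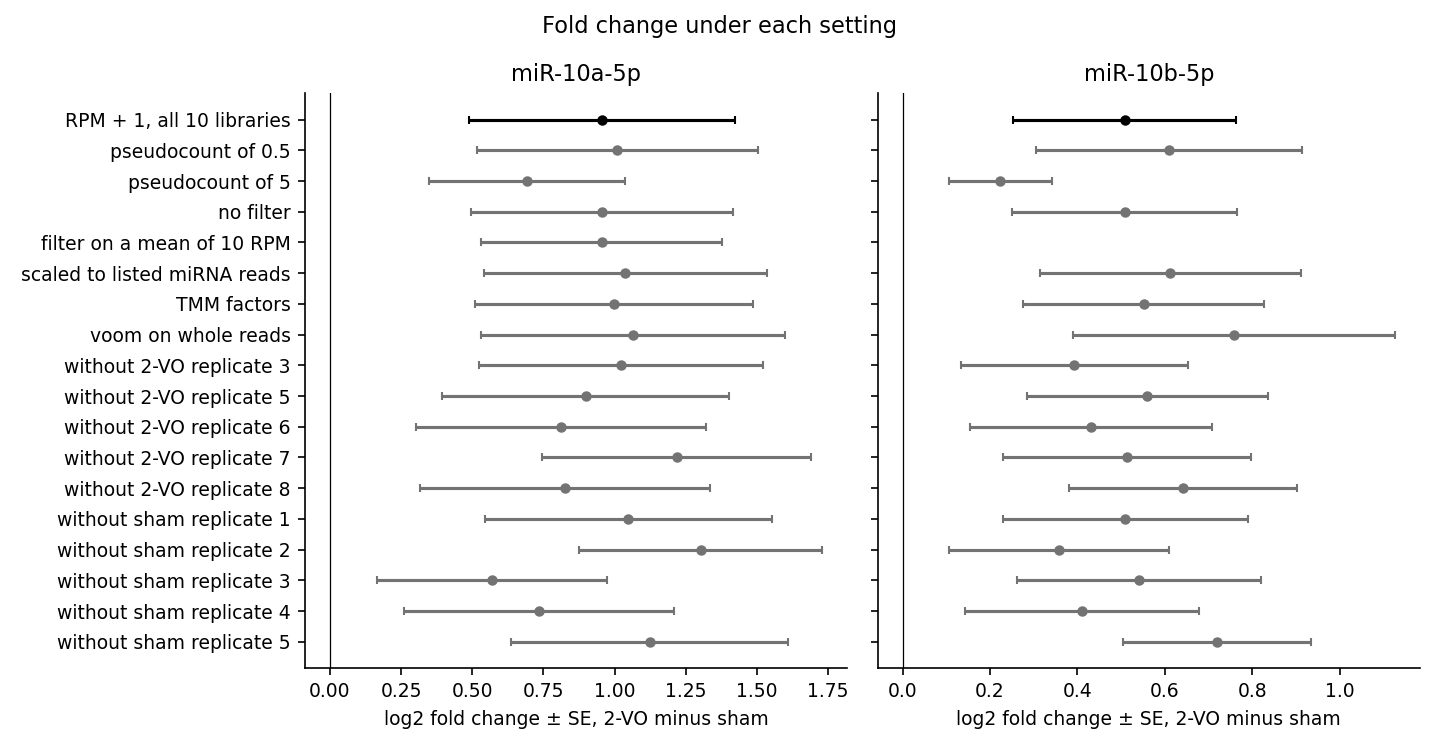
Log2 fold change of miR-10a-5p (left panel) and miR-10b-5p (right panel), 2-VO minus sham, with bars of 1 SE, for all 10 libraries (black, top) and under other settings (grey), without the fit that uses replicate numbers as a block, which is not drawn. Each point drawn lies above 0, from 0.57 to 1.30 for miR-10a-5p and from 0.22 to 0.76 for miR-10b-5p, and miR-10b-5p has no point under the filter of 10 RPM.

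The spread between libraries of a group was large for miR-10a-5p beside that of other miRNAs. Its within-group SD was 0.97 on the log2(RPM + 1) scale, against a median of 0.21 over the 474 miRNAs, and only 4 of them had a higher one. Those 4, named after their values were seen, were miR-6321, miR-200a-3p, miR-200b-3p and miR-653-5p. Among the 96 miRNAs with a mean RPM within 2-fold of its own, miR-10a-5p had the highest SD, and their median was 0.22. The SD of miR-10b-5p was 0.48, the 24th highest of the 474 and the 11th highest of 81 miRNAs of like mean RPM, whose median was 0.25.

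The spread of both members was larger than counting error. For miR-10a-5p the chi-square of reads across libraries was 48.3 per degree of freedom in 2-VO and 99.6 in sham libraries, where counting error alone gives about 1. For miR-10b-5p it was 5.42 in 2-VO and 10.6 in sham libraries. The labels' protocols name no molecular identifiers, so reads may include PCR copies, and these values cover counting error only.

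**Figure D4:**
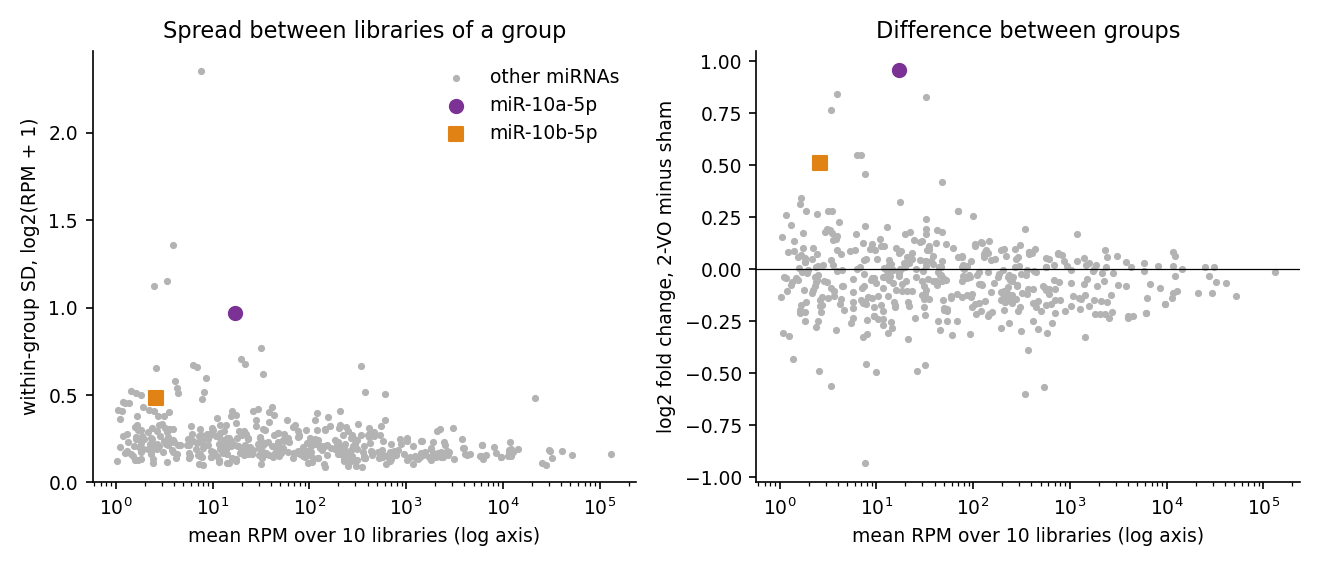
Mean RPM over 10 libraries on a log axis against the within-group SD of log2(RPM + 1) (left panel) and against the log2 fold change of 2-VO minus sham (right panel), with 1 point for each of 474 miRNAs. miR-10a-5p (circle) lies at an SD of 0.97 and a log2 fold change of 0.96, and miR-10b-5p (square) at 0.48 and 0.51.

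The relatives in sequence stood at far higher levels, and those of the miR-10 superfamily varied little. miR-99a-5p, miR-99b-5p and miR-100-5p are of the miR-10 superfamily. miR-100-5p averaged 10854 ± 1319 RPM in 2-VO and 11899 ± 945 RPM in sham libraries (SD, n = 5 each), and miR-99a-5p averaged 31488 ± 3687 RPM in 2-VO and 32827 ± 2733 RPM in sham libraries. Their log2 fold changes, with those of miR-99b-5p and let-7a-5p, lay between -0.21 and -0.064. All 4 were below 0, as were 295 of the 474 miRNAs, a share that depended on the scaling. Of the 4, 0 passed (limma's moderated test, smallest adjusted p = 0.77). The within-group SD of miR-100-5p was 0.15 on the log2 scale, beside 0.97 for miR-10a-5p. That of let-7a-5p was 0.21, like the median of 0.21 over all miRNAs past the filter.

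The miRNAs whose profile over the 10 libraries was most like that of miR-10a-5p were miR-1839-3p (Pearson's r = 0.72 of log2(RPM + 1)), miR-673-3p (0.68), miR-146a-5p (0.65), miR-301a-3p (0.65) and miR-133c (0.63). For miR-10b-5p they were miR-3574 and miR-210-3p (0.78 each), miR-215 (0.68), miR-182 (0.66) and miR-21-5p (0.64). By Spearman's rho some were less alike. With miR-10a-5p it was 0.697 for miR-1839-3p, 0.394 for miR-673-3p, 0.442 for miR-146a-5p, 0.709 for miR-301a-3p and 0.758 for miR-133c. With miR-10b-5p it ran from 0.564 for miR-182 to 0.745 for miR-210-3p. miR-3574 and miR-210-3p held the same values, so these names stand for 1 profile. No miRNA was among the 5 most alike of both members, and neither member was among those of the other. These are the highest of 473 correlations each, share the libraries and their divisors, and are given as a description without p.

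Markers of other cell types were summed in each library beside the members. The 6 endothelial and vessel wall miRNAs were all above 0 and summed to 16002 to 22673 RPM in 2-VO and 18727 to 21212 RPM in sham libraries, and 2 of the 5 that passed the filter had higher means in 2-VO (median log2 fold change -0.035). In 2-VO replicates 3, 5, 6, 7 and 8 this sum was 16331, 20304, 21431, 16002 and 22673 RPM, so the libraries with less miR-10a-5p, replicates 3 and 7, also had the lower sums. In sham replicates 1 to 5 it was 19720, 19978, 21212, 18727 and 19339 RPM, and replicates 3 and 4, with the least miR-10a-5p, had the highest and the lowest of these sums. The low sums of 2-VO replicates 3 and 7 were not particular to vessel miRNAs. Neuron and progenitor, leukocyte and microglia, red blood cell and muscle sums were lowest there too. The choroid plexus, epithelial and oligodendrocyte sums were not. Listed miRNAs also made up the least of the divisor in these 2-VO libraries, at 60.3% and 64.2%. Leukocyte and microglia miRNAs, 6 of 6 above 0, summed to 355 to 428 RPM in 2-VO and 371 to 431 RPM in sham libraries, with 4 of 5 tested members higher in 2-VO (median log2 fold change 0.092). Red blood cell miRNAs, 4 of 4 above 0, summed to 84.9 to 219.7 RPM in 2-VO and 131 to 157 RPM in sham libraries, with 3 of 4 higher in 2-VO (median 0.20).

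Epithelial and sensory cell miRNAs, of which 7 of 8 were above 0 and miR-141-3p was at 0, summed to 12.0 to 82.8 RPM in 2-VO and 10.3 to 23.8 RPM in sham libraries. All 5 that passed the filter had higher means in 2-VO (median log2 fold change 0.55), the direction of both members, and 0 of 5 passed the test. Their highest sum was in 2-VO replicate 3, the library with the most miR-10b-5p. Without that library the log2 fold change of miR-10b-5p was 0.39 and that of miR-10a-5p 1.02. The choroid plexus and ependyma miRNAs, 7 of 7 above 0, summed to 1079.6 to 1404 RPM in 2-VO and 1081 to 3014 RPM in sham libraries, with the highest sum in sham replicate 5, the sham library with the most miR-10b-5p. The epithelial and the leukocyte sums were also the highest of the sham libraries there. Among 2-VO libraries the choroid plexus and ependyma sum was highest in replicate 6, at 1404 RPM, with 1364 RPM in replicate 3. Of the 7 choroid plexus and ependyma miRNAs, 6 had lower means in 2-VO (median log2 fold change -0.33), and 0 passed the adjusted threshold (limma). An unadjusted p under 0.05 was found for 2, miR-204-5p and miR-211-5p, beside 24 of all 474 miRNAs, or 5.06% (limma). Oligodendrocyte miRNAs, 3 of 3 above 0, summed to 1615 to 2923 RPM in 2-VO and 1865 to 2762 RPM in sham libraries, with 2 of 3 higher in 2-VO (median log2 fold change 0.12). Their highest sum was also in 2-VO replicate 3. Muscle miRNAs, 4 of 4 above 0, summed to 22.5 to 36.2 RPM in 2-VO and 26.1 to 32.1 RPM in sham libraries, with 1 of 3 tested higher in 2-VO (median -0.039). The part of these cell types in the levels of miR-10a-5p and miR-10b-5p was not tested.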

How the data were processed

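The authors deposited a table of RPM values for 765 rat miRNAs by mature name, with 1 column for each of 10 libraries. The submitters' processing notes list the tools bcl2fastq and BWA and the build rn6, with no further detail. The sources used here give neither the miRNA annotation, nor how reads with several matches were counted, nor which reads form the divisor. With 1 divisor for each library, all 4962 values above 0 came out as whole reads to within 0.01 reads.

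The 474 miRNAs that averaged 1 RPM or more were analysed as log2(RPM + 1). 2-VO was compared with sham by limma's two-sided moderated test (version 3.58.1, R 4.3.3), using a mean-variance trend and no covariate. P-values were adjusted by Benjamini-Hochberg, the threshold was 0.05, and the fit was tested on simulated data. The simulated miRNAs were all given the same spread beyond counting error, smaller than that of miR-10a-5p. The simulation therefore does not cover a miRNA as variable as miR-10a-5p. Single values were tested with exact permutation tests over all assignments, and correlations with 100000 resamples (numpy 2.4.6). Groups are the treatments in the labels, and replicates are numbered as in the titles.

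The members and lists were chosen with earlier results of these data known. The miRNAs named are the members, the other Hox-cluster rows, 4 relatives in sequence and, for each member past the filter, the 5 miRNAs with the highest Pearson's r. Sequences were matched by name in RefSeq tables of GRCr8, and the entries for miR-99a-5p and miR-196a-3p were not matched. Alternatives varied the filter, the pseudocount, the scaling (listed miRNA reads, and TMM factors, a trimmed mean of log ratios), the test (voom on whole reads) and the use of a replicate block. Each library was also left out in turn.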

Additional observations from a re-analysis of the deposited data

Results flagged for a closer look

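Of 50 groups of 5 values, 3 held a value far from the others of its group, where chance gives about 2.5 for independent, normal values. Far means a gap to the next value of over 0.71 of the range. The groups were not independent, since miR-3574 and miR-210-3p hold the same values and some marker sums include miRNAs also examined alone. None of the 3 far values was a value of miR-10a-5p or miR-10b-5p. miR-215, a profile like that of miR-10b-5p, stood at 3.76 RPM in sham replicate 5 and at 0.890 to 1.52 RPM in the other sham libraries. In the same library the choroid plexus and ependyma miRNAs summed to 3014 RPM, with 1081 to 1609 RPM in the other sham libraries. The epithelial and sensory cell miRNAs summed to 82.8 RPM in 2-VO replicate 3 and to 12.0 to 29.6 RPM in the other 2-VO libraries.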

How the results depend on the processing

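The log2 fold changes of miR-10a-5p and miR-10b-5p stayed above 0, and the log2 ratio of miR-10b-5p to miR-10a-5p below 0, under each setting that was run. With 1 library left out, 0 miRNAs passed in each of 10 fits. The replicate numbers 3 and 5 occur in both groups, and with the replicate number as a block 8 miRNAs passed. In that fit, which rests on 4 libraries, miR-10a-5p passed (log2 fold change 1.37, limma adjusted p = 0.0010) and miR-10b-5p did not (0.14, limma adjusted p = 0.997). The block leaves almost no replication to estimate the spread of each miRNA. Its p-values therefore rest mostly on a spread borrowed from all miRNAs, and passing in it is weak evidence. Over the other settings the adjusted p of miR-10a-5p lay between 0.58 and 0.985. The ratio differed by -1.23 within these pairs, with no test. The labels do not say that a number marks a shared animal or day, and the deviations of same-numbered libraries correlated at -0.058 (number 3) and -0.18 (number 5), so the numbers were not taken to pair the libraries. miR-196a-5p gave no value under any setting, and miR-10b-5p none under the filter of 10 RPM. The planned count model on whole reads was not run, because counts under 10 reads are listed as 0. Depth leaves miR-196a-5p under 10 reads in each library, and miR-10b-5p rests on 12 to 63 reads per library.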

Other observations

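On the log2(RPM + 1) scale the 8 highest log2 fold changes of 2-VO over sham included both detected Hox-cluster miRNAs. The other 6 were miR-200a-3p, miR-6215, miR-200b-3p, miR-3553, miR-183-5p and miR-182, named after their values were seen, and each of these had its highest RPM in 2-VO replicate 3, as miR-10b-5p did. miR-10a-5p had its highest RPM in 2-VO replicate 6. None of the 8 passed (limma's moderated test, adjusted p between 0.76 and 0.84).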
